A study of Homo sapiens with 12 samples.

Results

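The 78 genes described here encode the proteins of the mitochondrial ribosome and were taken from a table of 63677 Ensembl genes. They were all protein-coding genes whose symbol is MRPL or MRPS followed by a number, together with DAP3. This rule uses no expression value, but the set was chosen with earlier results of these data known. RNA-seq was performed on 12 libraries from 3 lines of mantle cell lymphoma (MCL), a B-cell lymphoma: the JEKO1, the JVM2 and the MAVER1 line. Cells were cultured for 48 h without drug (control), with ironomycin, with ibrutinib, or with both. Ironomycin is a derivative of salinomycin that traps iron in lysosomes, and ibrutinib blocks Bruton tyrosine kinase, a kinase of B-cell receptor signalling. The ironomycin dose was 50 nM for JEKO1 and 250 nM for the other lines. The ibrutinib dose was 0.5 µM for JEKO1, 1.5 µM for JVM2 and 6.25 µM for MAVER1. A difference in dose and a difference between lines therefore cannot be told apart, except that JVM2 and MAVER1 shared the ironomycin dose. JVM2 was also grown with less fetal calf serum than the other lines. Every line contributed 1 library per treatment, so each treatment has n = 3. With the cell line as a term, p-values of the treatment comparisons rest on how treatment changes vary between lines, pooled over all 12 libraries. Tests that compare the lines use the differently treated libraries of a line as its samples, and describe these 3 lines only.

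Mitochondria carry their own genome, which encodes a small set of proteins of the respiratory chain and of ATP synthase. These are made inside the organelle by a ribosome whose 2 rRNAs, MT-RNR1 (12S) and MT-RNR2 (16S), are transcribed from mitochondrial DNA, while its proteins are encoded in the nucleus, made in the cytosol and imported. The small subunit reads the mRNA and the large subunit forms the peptide bond. Of the 78 members, 50 belong to the large subunit, 27 to the small subunit, and MRPS36 has turned out to be a subunit of 2-oxoglutarate dehydrogenase in spite of its symbol. MRPS18A and MRPS30 sit in the large subunit and were counted there. By another division, 46 members have a counterpart in bacterial ribosomes and 31 are found in mitochondrial ribosomes alone.

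Library totals ran from 35448523 to 38630809 counted reads, and a member's level is given in CPM, its reads scaled to a common library size after TMM, which corrects each total for shifts in composition. The B-cell markers MS4A1, CD79A, CD79B, PAX5 and CD22 summed to between 1099.6 and 1977 CPM in the 12 libraries. Of the MCL markers, SOX11 was at 0 and CD5 below 0.1 CPM in all 4 JVM2 libraries, and CCND1 stood at 322 CPM in the JVM2 control beside 3178 CPM in JEKO1 and 4252 CPM in MAVER1. The summed markers of T cells, monocytes and erythroid cells did not exceed 5.07 CPM in any library, and those of epithelial cells and fibroblasts did not exceed 32.9 CPM. Of the 78 members, 76 passed edgeR's filter on low counts. MRPS21 had 0 reads in every library and MRPL30 had 3 reads in all, and these were not tested. For these genes the counts say only that almost no reads were assigned to them. MRPL45 matched no identifier in the table and was not analysed here.

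The summed level of the members was lower than in control in every line with both drugs and, by less, with ironomycin alone. Summed over all members, the level in JEKO1 was 4624 CPM in control, 3801 CPM with ironomycin, 4532 CPM with ibrutinib and 3102 CPM with both drugs. In JVM2 the sums were 4532, 4151, 4457 and 3842 CPM, and in MAVER1 5055, 3624, 4637 and 3119 CPM, in the same order. As a share of the line's own control, the sum with both drugs was 67.1% (JEKO1), 84.8% (JVM2) and 61.7% (MAVER1), while with ibrutinib alone it was 98.0%, 98.3% and 91.7%. The 3 libraries with both drugs averaged 3354 ± 422 CPM (SD, n = 3) and did not overlap with the 3 control libraries, which averaged 4737 ± 279 CPM. A level is a share of the reads of a library, so that fewer transcripts of these genes per cell, more of other transcripts, and fewer of the cells that carry them cannot be told apart.

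**Figure D1:**
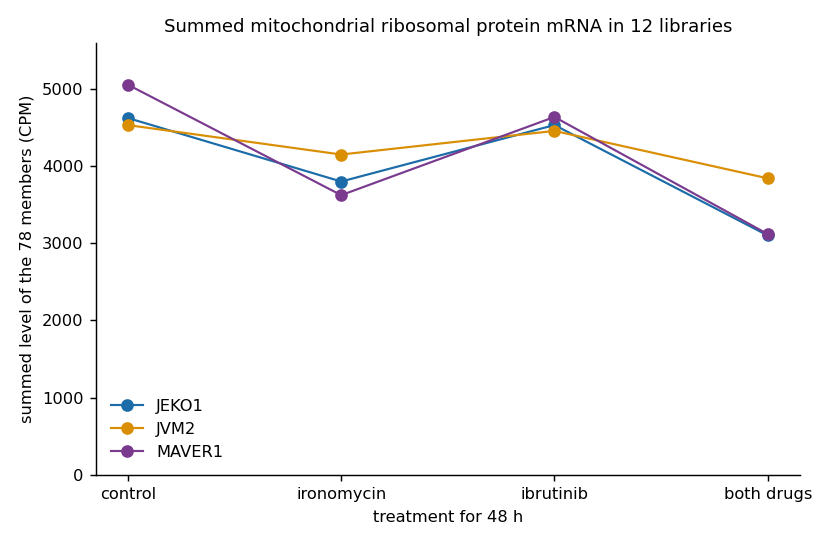
Summed level of the 78 members in CPM (vertical axis, from 0) in each of the 12 libraries by treatment (horizontal axis), with 1 colour for each cell line and lines joining the libraries of that line. In each line the library with both drugs is the lowest, from 3102 CPM in JEKO1 to 3842 CPM in JVM2, and the ibrutinib library is at 91.7% or more of its control.

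With both drugs against control, 62 of the 76 members tested fell and 0 rose at an adjusted p under 0.05 (edgeR's quasi-likelihood test, Benjamini-Hochberg adjustment over 18674 genes, cell line as a term). Across all genes tested, 28.2% were called in either direction and 14% were called lower, against 81.6% of the members. The median log2 fold change of the members was -0.46, beside 0.05 over all genes, and 74 of 76 members lay below 0. In 65 members the log2 ratio to the line's own control was below 0 in all 3 lines, and in 1, MRPL38, it was above 0 in all 3. Over all genes tested, 23.1% were below 0 in all 3 lines and 25.4% above. The members whose least affected line still moved most were MRPS28 (-0.51), MRPL22 (-0.47), MRPS23 (-0.45), MRPL28 (-0.43) and MRPS18A (-0.42), and that line was JVM2 in each. The changes were small in size: 1 member, MRPS28, also reached a log2 fold change of at least 1, a rule that 6.29% of all genes met. The calls rest on a spread estimated from all 12 libraries. Apart from the line term, that fit treats the libraries of a line as independent. Libraries with ironomycin can share a response of their line, so p-values here may be too small. Without the JEKO1 libraries, and likewise without the MAVER1 libraries, the count of members called was 0, with medians of -0.43 and -0.39, and without JVM2 it was 67 with a median of -0.61. It was also 0 when the fit held only the 6 libraries compared, or left the cell line out, and 69 by DESeq2, which called 6296 of all 18674 genes. With library totals in place of TMM it was 43.

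The sharpest fall was that of MRPS28 (ENSG00000147586), a small-subunit protein. JEKO1 held 8.72 CPM of MRPS28 in control, 6.17 CPM with ironomycin, 8.2 CPM with ibrutinib and 3.36 CPM with both drugs. MRPS28 was at 19.2, 16, 17.5 and 13.5 CPM in JVM2, in the same order, and at 21.6, 11.2, 19.4 and 9.05 CPM in MAVER1. With both drugs MRPS28 was the lowest of the 4 libraries in each line. Its log2 fold change was -1.02 ± 0.18 (SE), adjusted p = 0.00473. In the annotation used for lengths, GENCODE v29, 35.8% of its exon sequence is shared with another gene on the same strand, AC036214.3, so its counts are uncertain.

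MRPS23 (ENSG00000181610), a small-subunit protein with no bacterial counterpart, came next. In JEKO1, MRPS23 stood at 63.9 CPM in control, 41.1 CPM with ironomycin, 57.7 CPM with ibrutinib and 32.6 CPM with both drugs. JVM2 gave 57.3, 49.1, 56.8 and 42.1 CPM for MRPS23 in that order, and MAVER1 77.7, 50.7, 70.4 and 39.7 CPM. The level was lower with ironomycin than in control in each line, and lower again with both drugs. The log2 fold change of both drugs was -0.80 ± 0.11 (SE), adjusted p = 0.00284. MRPS12 (ENSG00000128626), whose exons overlap those of SARS2 on the opposite strand over 16.3% of their length, is the counterpart of the bacterial protein of the decoding centre in which streptomycin resistance arises. The level of MRPS12 in JEKO1 was 50.2 CPM in control, 34.5 CPM with ironomycin alone, 48.4 CPM with ibrutinib alone and 25.2 CPM with both. With the treatments in the same order, MRPS12 had 79.3, 67.9, 82.4 and 62.8 CPM in JVM2 and 192, 122, 164 and 93.1 CPM in MAVER1. MAVER1 held the highest level in every treatment, and the fall with both drugs was -0.79 ± 0.12 (SE), adjusted p = 0.0035.

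MRPL28 (ENSG00000086504) and MRPL4 (ENSG00000105364), both large-subunit proteins with a bacterial counterpart, changed by nearly the same amount. Of the exon sequence of MRPL28, 7.3% is shared with TMEM8A on the same strand. In MRPL4, 21.4% overlaps AC011511.2 and AC011511.3 on the opposite strand. For MRPL28, the JEKO1 control had 89 CPM, ironomycin 67.5 CPM, ibrutinib 79.8 CPM and both drugs 47.2 CPM. MRPL28 was at 116, 93.3, 109 and 86.2 CPM in JVM2, in the same order, and at 135, 83.2, 122 and 69.4 CPM in MAVER1. Its log2 fold change with both drugs was -0.76 ± 0.11 (SE), adjusted p = 0.00334. JEKO1 held 123 CPM of MRPL4 in control, 91.4 CPM with ironomycin, 117 CPM with ibrutinib and 71.7 CPM with both drugs. JVM2 gave 85.7, 72.3, 86.4 and 66.4 CPM for MRPL4 in that order, and MAVER1 115, 63.4, 100.9 and 52.4 CPM. Its log2 fold change was -0.76 ± 0.13 (SE), adjusted p = 0.00398, with the smallest ratio in JVM2 (-0.37) and the largest in MAVER1 (-1.14).

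MRPS6 (ENSG00000243927), the counterpart of bacterial S6, behaved differently from line to line. Of its exon sequence, 9.6% is shared with AP000317.2 and SLC5A3 on the same strand. In JEKO1, MRPS6 stood at 28.5 CPM in control, 16.1 CPM with ironomycin, 32 CPM with ibrutinib and 15.1 CPM with both drugs. With the treatments in the same order, MRPS6 had 22.3, 23.3, 24.7 and 22.6 CPM in JVM2 and 23.9, 11.8, 21.8 and 8.97 CPM in MAVER1. In JVM2 the 4 libraries lay close together, whereas in JEKO1 and MAVER1 both ironomycin libraries were far below the other pair. The fitted log2 fold change with both drugs was -0.76 ± 0.23 (SE), adjusted p = 0.0342. MRPS18A (ENSG00000096080), the S18 paralog of the large subunit, was the member that ironomycin alone changed most in JEKO1. The level of MRPS18A in JEKO1 was 64.4 CPM in control, 29.4 CPM with ironomycin alone, 57.1 CPM with ibrutinib alone and 32.6 CPM with both. MRPS18A was at 28.7, 25.7, 28.2 and 21.4 CPM in JVM2, in the same order, and at 28.3, 16.8, 26.3 and 15.9 CPM in MAVER1. In JEKO1 the ironomycin library was lower than that with both drugs, and in the other lines the reverse held. Its log2 fold change with both drugs was -0.76 ± 0.15 (SE), adjusted p = 0.00719, and 47% of its exon sequence overlaps RSPH9 on the opposite strand. The library kit's name speaks of strand, but whether reads were counted by strand is not given in the sources used here.

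MRPL41 (ENSG00000182154), a large-subunit protein specific to mitochondria, completed the set of the largest falls at -0.75 ± 0.16 (SE), adjusted p = 0.00876. For MRPL41, the JEKO1 control had 43.3 CPM, ironomycin 36.8 CPM, ibrutinib 40.1 CPM and both drugs 25.3 CPM. JVM2 gave 58.5, 47.9, 56.1 and 48.3 CPM for MRPL41 in that order, and MAVER1 59.6, 29.3, 44.4 and 25.9 CPM. MAVER1 with ironomycin held about the level of MAVER1 with both drugs. In JVM2 the 2 libraries with ironomycin were also close to each other.

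**Figure D2:**
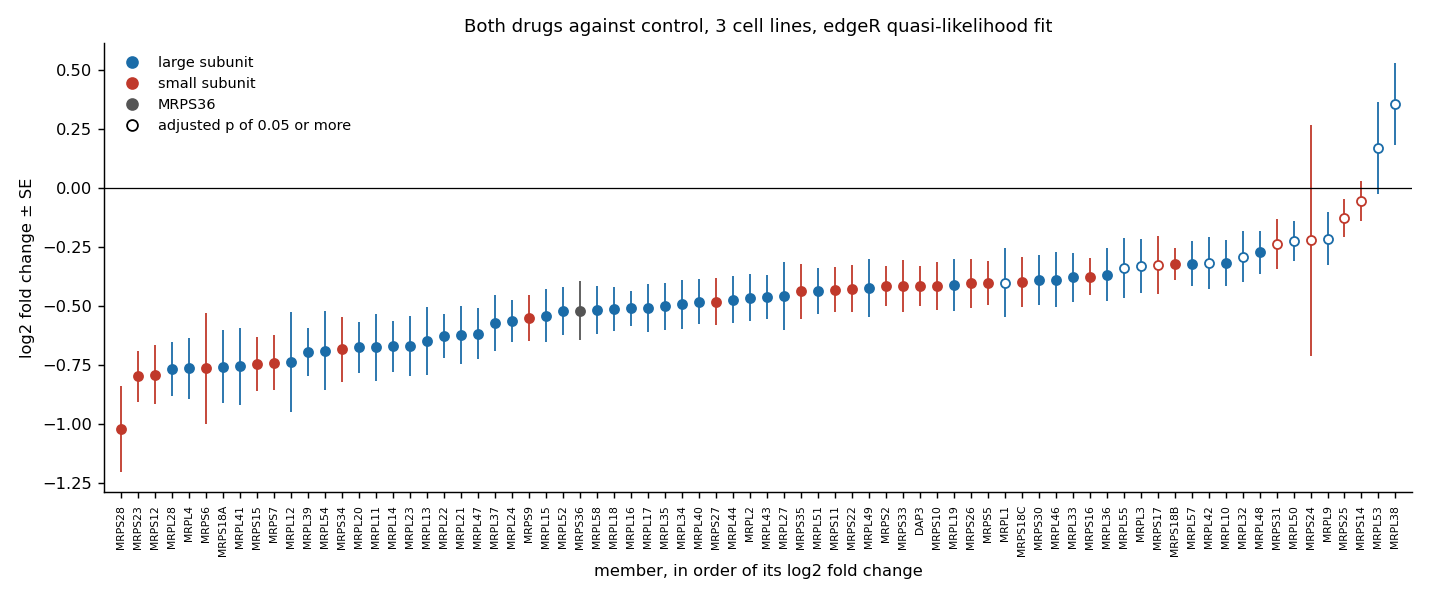
Fitted log2 fold change with its SE (vertical axis) for the 76 members tested, both drugs against control, in order of size (horizontal axis), coloured by subunit and filled where the adjusted p was under 0.05. The values run from -1.02 for MRPS28 to 0.36 for MRPL38, and large- and small-subunit members are interleaved.

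Because the members moved together, the sequence just upstream of their start sites was examined for the binding letters of factors known to act on such promoters. Shown here are the 100 bases before the start of the 4 called members with the largest falls for which such a stretch could be printed, and of the 2 members with the smallest changes, MRPS14 and MRPS25. They come from RefSeq promoter windows on GRCh38.p14 and are written 5′ to 3′ on the strand of the gene. They lie at chr17:57850045-57850144, minus strand (MRPS23), chr16:370539-370638, minus strand (MRPL28), chr19:10251851-10251950, plus strand (MRPL4), chr6:43687792-43687891, minus strand (MRPS18A), chr1:175023426-175023525, minus strand (MRPS14) and chr3:15065316-15065415, minus strand (MRPS25). Capitals mark any of 5 motifs, on either strand: the letters GCGCANGC for NRF1, CCGGAAG for GABPA and other ETS factors, AANATGGC for YY1, CACGTG for MYC, and CCAAT for NFY.
MRPS23: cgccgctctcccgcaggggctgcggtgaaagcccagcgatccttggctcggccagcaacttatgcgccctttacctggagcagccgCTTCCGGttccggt
MRPL28: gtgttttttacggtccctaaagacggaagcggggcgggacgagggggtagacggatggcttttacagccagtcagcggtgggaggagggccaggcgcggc
MRPL4: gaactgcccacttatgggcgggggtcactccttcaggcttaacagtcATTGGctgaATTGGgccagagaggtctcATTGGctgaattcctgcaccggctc
MRPS18A: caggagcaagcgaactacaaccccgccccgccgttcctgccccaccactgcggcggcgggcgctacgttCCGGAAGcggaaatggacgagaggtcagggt
MRPS14: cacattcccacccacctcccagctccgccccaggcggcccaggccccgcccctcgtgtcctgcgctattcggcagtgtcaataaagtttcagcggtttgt
MRPS25: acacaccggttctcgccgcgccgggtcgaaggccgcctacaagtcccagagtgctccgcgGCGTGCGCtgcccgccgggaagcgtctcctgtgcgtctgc

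MRPS23 and MRPS18A each show a GABPA motif in these bases and MRPL4 shows 3 NFY motifs, whereas MRPL28 and MRPS14 show none of the 5. MRPS25, which did not pass the test, shows an NRF1 motif. Windows of 300 bases, from 250 before to 50 after the start, were found for 67 of the 76 members tested and for 10806 protein-coding genes tested. The GABPA motif was found in 28 of 67 member windows (41.8%) and in 18.5% of all windows, and the YY1 motif in 25 (37.3%) and 9.90%. The NRF1 motif was found in 21 member windows (31.3%) and in 21% of all, the MYC motif in 5 (7.46%) and in 9.85%, and the NFY motif in 19 (28.4%) and in 36.9%. In 53 member windows (79.1%) at least 1 of the NRF1, GABPA and YY1 motifs was present, beside 40.7% of all windows. No 2 different motifs overlapped in a member window. Of the 25 members with the YY1 motif, 18 carried it across an annotated start codon, so that its letters are there also the beginning of the protein.

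With both drugs against control, members with a GABPA motif had a median log2 fold change of -0.46 (24 of 28 called) and those without it -0.42 (29 of 39 called). For NRF1 the medians were -0.48 with the motif (19 of 21 called) and -0.42 without (34 of 46 called), and for YY1 they were -0.41 (17 of 25 called) and -0.46 (36 of 42 called). For MYC they were -0.42 (5 of 5 called) and -0.44 (48 of 62 called), and for NFY, with the widest gap, -0.51 (16 of 19 called) and -0.42 (37 of 48 called). These are descriptions of letters in a window, and binding was not measured. By GENCODE v29, 27 members have another protein-coding gene on the opposite strand whose first base lies within 1000 bases of their own. Pairs that point away from each other were not separated from pairs that overlap. Of the 26 such neighbours tested, 5 were called lower (19.2%) and 3 higher (11.5%). Among all 18674 genes tested, 14% were called lower and 2655 genes were called higher, so these counts are near those of all genes. The median log2 fold change of the neighbours was -0.07, whereas the members beside them had a median of -0.48. The neighbours called lower were TCP1, NDUFS6, SLC7A7, PTCD2 and NCAPD2, and those called higher were EME2, PNPLA7 and ZNF189. These were named after their values were seen. EME2, which starts beside MRPS34, had a log2 fold change of 0.57 (adjusted p = 0.00522, edgeR) and MRPS34 -0.68 (adjusted p = 0.00684). SARS2, the mitochondrial seryl-tRNA synthetase beside MRPS12, had -0.38 (adjusted p = 0.143).

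Both subunits took part. Of 49 large-subunit members tested, 40 were called lower with both drugs, with a median of -0.49, and of 26 small-subunit members 21, with a median of -0.42. Among members with a bacterial counterpart 36 of 44 were called lower (median -0.50), and among those found in mitochondria alone 25 of 31 (median -0.42). Summed over the large subunit, the 3 control libraries averaged 2867 ± 63.1 CPM (SD, n = 3) and those with both drugs 2033 ± 359 CPM. For the small subunit the averages were 1850.4 ± 232 CPM and 1307 ± 68.3 CPM. The difference between these groups of members was not tested.

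Members with a further known role are given next. DAP3, a GTP-binding protein of the small subunit first described as a mediator of cell death, had -0.41 (adjusted p = 0.00689) with both drugs. JEKO1 held 137 CPM of DAP3 in control, 124 CPM with ironomycin, 122 CPM with ibrutinib and 100.8 CPM with both drugs. With the treatments in the same order, DAP3 had 120.3, 111, 116 and 103 CPM in JVM2 and 181, 142, 164 and 122 CPM in MAVER1. In each line the library with both drugs was the lowest. MRPL12, the stalk protein that meets the translation factors, had -0.73 ± 0.21 (SE), adjusted p = 0.0269. In JVM2 its level was 6.34 CPM in control and 6.25 CPM with both drugs, whereas in MAVER1 it was 10.1 and 4.33 CPM. The annotation places 68.2% of its exon sequence also in AC139530.2 on the same strand, and its counts are therefore uncertain. MRPL58, a peptidyl-tRNA hydrolase built into the large subunit, had -0.51 (adjusted p = 0.00648), and MRPL57, another large-subunit protein, had -0.32 (adjusted p = 0.0293). MRPL32, which is matured by the m-AAA protease before it joins the ribosome, had -0.29 (adjusted p = 0.0645) and did not pass the test.

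Of the 3 paralogs of bacterial S18, MRPS18A fell as described. MRPS18B, of the small subunit, had -0.32 ± 0.07 (SE), adjusted p = 0.00831, and its ratios were -0.27 (JEKO1), -0.38 (JVM2) and -0.31 (MAVER1). MRPS18C had -0.40 ± 0.11 (SE), adjusted p = 0.0214, and 40.2% of its exon sequence overlaps ABRAXAS1 on the opposite strand. MRPS30, of the large subunit, had -0.39 (adjusted p = 0.0213). MRPS36, the dehydrogenase subunit, had -0.52 (adjusted p = 0.0135). In JEKO1, MRPS36 stood at 18.8 CPM in control, 15.5 CPM with ironomycin, 17.5 CPM with ibrutinib and 10.3 CPM with both drugs. MRPS36 was at 20.8, 20.5, 17.8 and 16.4 CPM in JVM2, in the same order, and at 19.7, 17.5, 18.7 and 15.1 CPM in MAVER1. The library with both drugs was the lowest of its line in all 3.

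A few members did not follow. MRPS14, of the small subunit, had -0.05 (adjusted p = 0.662). The level of MRPS14 in JEKO1 was 40 CPM in control, 40 CPM with ironomycin alone, 43.2 CPM with ibrutinib alone and 40.5 CPM with both. JVM2 gave 29.3, 29.6, 28.3 and 25.1 CPM for MRPS14 in that order, and MAVER1 23.1, 24.3, 24.2 and 23.7 CPM. In JEKO1 and MAVER1 all 4 libraries of MRPS14 lay close together. MRPS25, also of the small subunit, had -0.13 (adjusted p = 0.255), and ratios of -0.19 (JEKO1), -0.06 (JVM2) and -0.13 (MAVER1). MRPL38, a large-subunit protein, had the highest value of all members at 0.36 (adjusted p = 0.145). For MRPL38, the JEKO1 control had 4.17 CPM, ironomycin 5.00 CPM, ibrutinib 4.30 CPM and both drugs 6.96 CPM. With the treatments in the same order, MRPL38 had 3.08, 3.40, 3.30 and 3.56 CPM in JVM2 and 3.34, 3.57, 3.83 and 3.48 CPM in MAVER1. The largest difference was that in JEKO1. MRPL53 had 0.17 (adjusted p = 0.537), at 0.934 to 3.08 CPM over the 12 libraries. The annotation has 37.5% of MRPL38 and 45.2% of MRPL53 in genes on the same strand, and both counted few reads, 1850 and 923 in all, so these values are uncertain. MRPS24, with 98 reads in all, had -0.22 ± 0.49 (SE), adjusted p = 0.767 and its SE spans both directions. The other members that did not pass were MRPL1, MRPL55, MRPL3, MRPS17, MRPL42, MRPS31, MRPL50 and MRPL9, with log2 fold changes from -0.40 (MRPL1) to -0.21 (MRPL9) and adjusted p from 0.0515 (MRPL42, edgeR) upwards.

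Ironomycin alone gave changes of the same direction and smaller size. At an adjusted p under 0.05 edgeR called 0 of 76 members, while 0.584% of all genes were called. At an unadjusted p under 0.05 there were 46 members, and 4198 of all 18674 genes. DESeq2, run on the same counts, called 33 members and 2308 of all genes. The median of the members was -0.26, beside 0.03 over all genes, 74 of 76 lay below 0, and in 58 the ratio was below 0 in all 3 lines, as in 20.8% of all genes. The 5 lowest p-values belonged to large- and small-subunit genes alike. MRPL16 had a log2 fold change of -0.36 ± 0.07 (SE), adjusted p = 0.0592, MRPS23 -0.50 (adjusted p = 0.0623), MRPL22 -0.42 (adjusted p = 0.0643), MRPL20 -0.48 (adjusted p = 0.0672) and MRPL52 -0.45 (adjusted p = 0.0672). JEKO1 held 85.1 CPM of MRPL16 in control, 67.2 CPM with ironomycin, 86.2 CPM with ibrutinib and 58.5 CPM with both drugs. MRPL16 was at 89.7, 74.8, 89.9 and 69 CPM in JVM2, in the same order, and at 75.6, 54.7, 72.1 and 49.8 CPM in MAVER1. In each line the ironomycin library was below its control, and the library with both drugs lower still. With no filter on low counts 9 members were called. Leaving out the JVM2 libraries brought the count of members called from 0 to 30, and leaving out JEKO1 or MAVER1 left it at 0.

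Taking the libraries with and without ibrutinib together gave 6 libraries with ironomycin and 6 without. They come from the same 3 lines, so they are not 6 replicates. The fit treats the ironomycin libraries of a line as independent, although they can share a response of that line. SEs and p-values of this comparison may therefore be too small. This averaged ironomycin effect was called in 65 of 76 members (85.5%), all lower, where 33.4% of all genes were called and 16.3% called lower. The median of the members was -0.35, beside 0.04 over all genes, and 68 members were below 0 in all 3 lines, where 23.5% of all genes were. No member reached a log2 fold change of at least 1 as well, a rule met by 3.94% of all genes. The largest falls were those of MRPS28 (-0.73), MRPS6 (-0.71), MRPS18A (-0.66), MRPL12 (-0.63), MRPS12 (-0.60), MRPL4 (-0.59), MRPS23 (-0.59) and MRPS7 (-0.58). Their SEs ran from 0.08 for MRPS23 to 0.17 for MRPS6. MRPL32, which missed the threshold with both drugs against control, was called here at -0.26 (adjusted p = 0.0242). The count was 24 when the JEKO1 libraries were left out, 3 for MAVER1 and 69 for JVM2, and it was 0 without the cell line as a term. With library totals in place of TMM it was 51.

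Ibrutinib alone left these genes near their control levels. Of 76 members 0 were called by edgeR, and 0% of all genes, and DESeq2 likewise called 0 members. One member, MRPL39, had an unadjusted p under 0.05, at a log2 fold change of -0.23 ± 0.10 (SE) and an adjusted p of 1. The next lowest p-values were those of MRPS27 (-0.17), MRPS15 (-0.19), DAP3 (-0.12) and MRPS18B (-0.09). The median was -0.05, beside -0.00 over all genes. By line the medians were -0.02 (JEKO1), -0.01 (JVM2) and -0.11 (MAVER1, where the ibrutinib dose was the highest). The ratio was below 0 in all 3 lines for 23 of 76 members and for 15.2% of all genes.

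**Figure D3:**
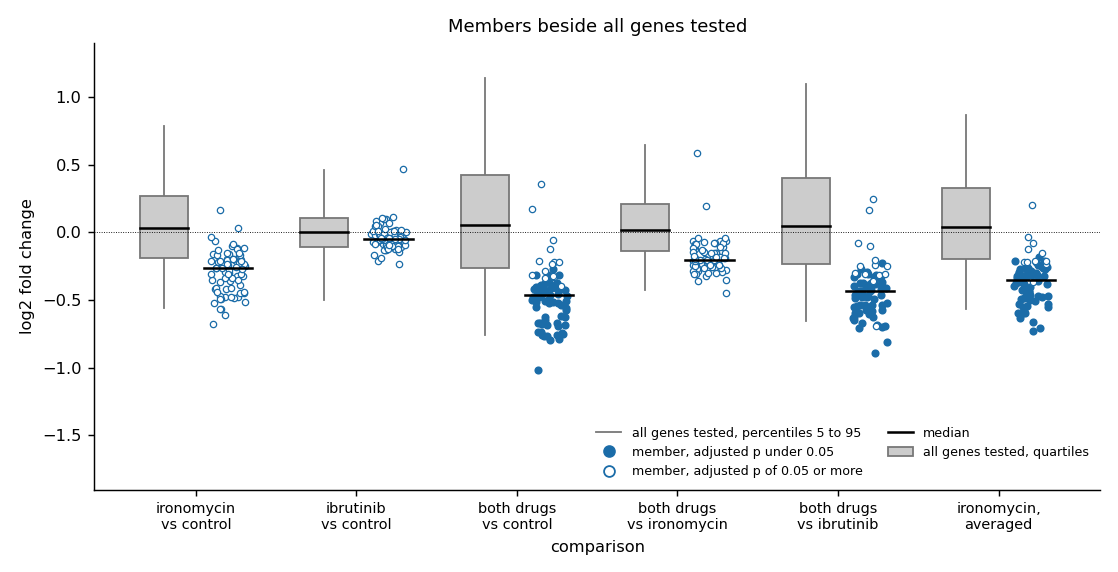
Fitted log2 fold changes (vertical axis) in 6 comparisons (horizontal axis): grey boxes give the quartiles of the 18674 genes tested with lines from percentile 5 to 95, and blue points the 76 members, filled where called, with black bars at the medians. The members' median lies below that of all genes in each comparison, with the smallest gap for ibrutinib alone (-0.05) and the largest for both drugs against control (-0.51); comparisons with the same reference share those libraries.

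Both drugs were next set against ibrutinib alone, which asks what ironomycin added. Of 76 members 62 were called lower and 0 higher, against 23.3% of all genes called and 11.5% called lower, and the median was -0.43 (0.05 over all genes). No member was called at a log2 fold change of at least 1, where 4.66% of all genes were. The largest falls were again those of MRPS28 (-0.89), MRPS6 (-0.81), MRPS12 (-0.71), MRPL12 (-0.70), MRPS23 (-0.69), MRPS7 (-0.68), MRPL4 (-0.67) and MRPS18A (-0.65). This comparison shares its libraries with both drugs with the one of both drugs against control, and its p-values may be too small for the same reason. Without JEKO1, or without MAVER1, the count was 0, and without JVM2 it was 66. It was 1 when the fit held only the 6 libraries compared, 0 without the cell line as a term and 39 when library totals replaced TMM.

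Adding ibrutinib to ironomycin gave a smaller shift of the same direction. By edgeR 0 of 76 members and 0% of all genes were called, 26 members and 1970 of all 18674 genes had an unadjusted p under 0.05, and DESeq2 called 0 members. The median was -0.20, beside 0.01 over all genes, and 63 members were below 0 in all 3 lines, where 19.8% of all genes were. MRPS27, a small-subunit protein with RNA-binding repeats, had the lowest p at -0.31 ± 0.10 (SE), adjusted p = 0.431. In JEKO1, MRPS27 stood at 169 CPM in control, 152 CPM with ironomycin, 142 CPM with ibrutinib and 105 CPM with both drugs. JVM2 gave 114, 107, 106 and 99.7 CPM for MRPS27 in that order, and MAVER1 115, 95.2, 102 and 76.9 CPM. The library with both drugs was below the ironomycin library in each line. MRPL17 had -0.30, MRPS36 -0.36 and MRPL39 -0.28, while MRPL53, at its few reads, had 0.58 (each with an adjusted p of 0.431, edgeR).

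Whether both drugs did more than the sum of the single changes was asked of the same fit. No member was called, 0 had an unadjusted p under 0.05 by edgeR, DESeq2 called 0 members, and 0% of all genes were called. The median of this departure was -0.14 (0.01 over all genes), and 46 members were below 0 in all 3 lines, where 16.6% of all genes were. By line the medians were -0.29 (JEKO1), -0.11 (JVM2) and -0.09 (MAVER1). The lowest unadjusted p-values were those of MRPL53 (0.58 ± 0.28), MRPS9 (-0.26 ± 0.14), MRPL35 (-0.26 ± 0.14), MRPS30 (-0.27 ± 0.15) and MRPL24 (-0.21 ± 0.12), with SEs after the sign and adjusted p-values that round to 1 (edgeR). A p that misses the threshold in 3 lines does not show that the changes simply added up.

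**Figure D4:**
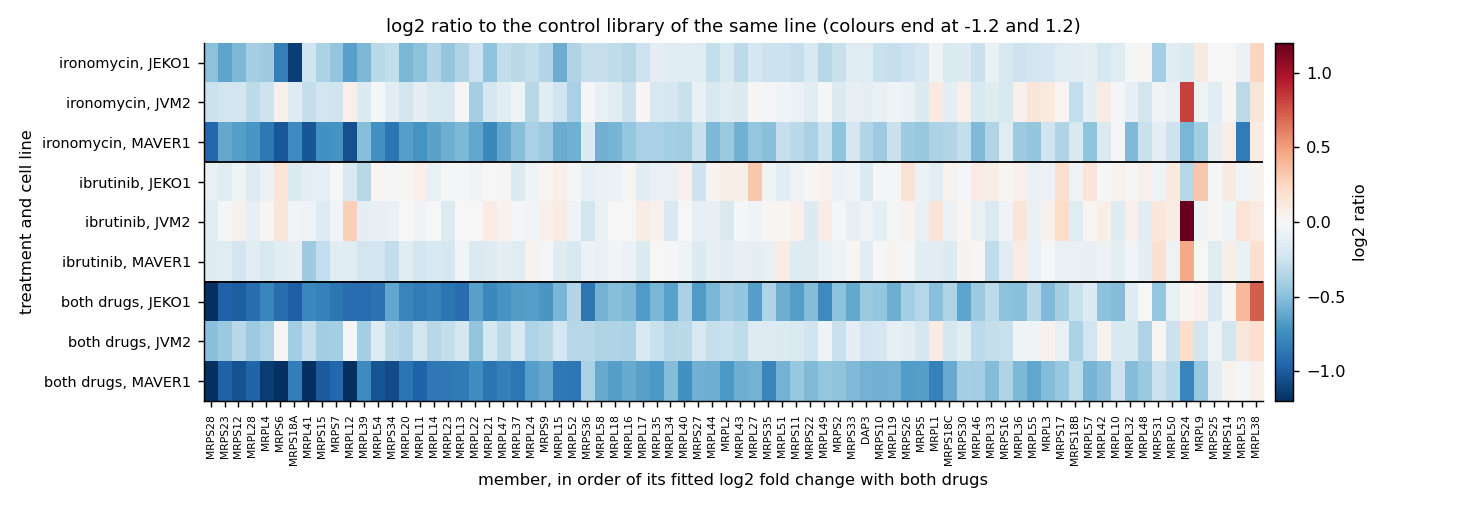
log2 ratio of each of the 76 members tested to the control library of the same line (colour, ending at -1.2 and 1.2), with members across in order of their change with both drugs and 1 row for each treatment and line. The both-drug rows of JEKO1 and MAVER1 are the darkest (medians -0.55 and -0.61), the JVM2 row is paler (-0.23), and the ibrutinib rows are near white.

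In some members the effect of ironomycin differed between the lines. The medians of the averaged ironomycin effect were -0.40 (JEKO1), -0.16 (JVM2) and -0.51 (MAVER1), with 73, 71 and 75 of 76 members below 0. A test of the difference between lines took a line's libraries with and without ibrutinib as its samples. It was called in 13 of 76 members (17.1%) and in 9.38% of all genes. MRPS6 had the lowest adjusted p, 0.00467 (edgeR), and averaged ratios of -0.95 (JEKO1), -0.03 (JVM2) and -1.15 (MAVER1). MRPL55 followed at -0.24, 0.09 and -0.50, and MRPS34 at -0.44, -0.19 and -0.83. MRPL11, MRPL54, MRPL4, MRPS18A, MRPL13, MRPS35 and MRPL23 were the next by p, and JVM2 had the ratio nearest 0 in all of these. Leaving out the libraries of 1 line gave 24 members (JEKO1 left out), 0 (JVM2) or 1 (MAVER1). The summed B-cell markers moved with the same lines: in JEKO1 they went from 1837 CPM in control to 1371 CPM with ironomycin and 1336 CPM with both drugs, in MAVER1 from 1579 to 1099.6 and 1189.7 CPM, and in JVM2 from 1650.3 to 1658 and 1725 CPM. Under the averaged ironomycin effect 3 of these 5 markers were called lower, with a median log2 fold change of -0.48, and with both drugs against control 1 was, with a median of -0.33. Of all genes tested, 16.3% and 14% were called lower in these comparisons. All 5 markers had fitted values below 0 in both, but MS4A1 in JEKO1 was at 355 CPM in control and 360 CPM with ironomycin. In JVM2, CD79A (486 to 417 CPM) and CD79B (123 to 97.4 CPM) were lower with both drugs than in control. MS4A1 (444 to 573 CPM), PAX5 and CD22 were higher there, so the JVM2 sum joins opposite moves. The part of these markers in the result was not tested.

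The levels themselves also differed between lines, in 61 of 76 members (80.3%), where 90% of all genes differed. MRPL48 had the lowest p, and its control levels were 38.7 (JEKO1), 33 (JVM2) and 117 CPM (MAVER1). MRPS12 was highest in MAVER1 as well, MRPL17 was highest in JVM2 (32.9, 86.3 and 50.3 CPM), and MRPL13 lowest in MAVER1 (35, 45.5 and 15.3 CPM). MRPL57 was lowest in MAVER1 (53.2, 60.9 and 27.7 CPM) and MRPL34 lowest in JEKO1 (24.5, 49.8 and 61.5 CPM). MRPL18, MRPS33, MRPL24 and MRPS22 were the other members among the 10 lowest adjusted p-values. MRPL12, MRPL32 and MRPS18C did not pass the test between lines (adjusted p = 0.99, 0.406 and 0.554, edgeR).

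Levels of different members were compared per kilobase of exon. The length is that of all annotated exons of a gene merged, which can exceed the transcript present in the cells, so the order depends on the annotation. In the control libraries MRPS34 was the highest at 189 ± 96.1 CPM per kb (SD, n = 3), with 122, 147 and 299 CPM per kb in the JEKO1, JVM2 and MAVER1 control. It was followed by MRPL14 at 78.7 ± 10.5, MRPL51 at 72.1 ± 10.3, MRPS18B at 64.7 ± 11.9 and MRPL3 at 63.0 ± 14.2 CPM per kb. From MRPL14 on, each differed from the next in this order by less than their SDs. MRPS34 was above MRPL14 by more than 1 SD. The lowest of the members tested were MRPS24, MRPL38 and MRPL53, all with exons shared with other genes, and MRPS21 and MRPL30 lay below them at or near 0.

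Across the 12 libraries, with each line's mean removed, the members varied together. The median correlation between 2 members was 0.89 over 2850 pairs, and 95.9% of pairs were above 0. In 68 of 76 members the correlation with the mean of the others was above 0.8. The lowest were MRPL38 (-0.62), MRPL53 (-0.01) and MRPS14 (0.19). Differences between treatments were not removed, so the lower levels with ironomycin described above enter these values. No value over all genes stands beside them. All points share the same 12 libraries and the scaling of each, and the values are given as a description.

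The rest of the mitochondrial translation apparatus was followed in lists written with earlier results of these data known. Of the other 4 subunits of the ribosome, which carry different symbols, all 4 were called lower with both drugs: GADD45GIP1 (-0.75, adjusted p = 0.00505), AURKAIP1 (-0.53, adjusted p = 0.0116), CHCHD1 (-0.38, adjusted p = 0.0146) and PTCD3 (-0.22, adjusted p = 0.0494). Among 29 genes of ribosome assembly and rRNA modification, 14 were called lower and 0 higher, with a median of -0.22. These include C1QBP, a matrix chaperone (-0.83, adjusted p = 0.00347), the rRNA methyltransferases MRM3 (-0.69, adjusted p = 0.00393) and MRM2 (-0.53, adjusted p = 0.00824), the assembly factor MALSU1 (-0.55, adjusted p = 0.00645), and the helicases DHX30 (-0.52, adjusted p = 0.00424) and DDX28 (-0.52, adjusted p = 0.0103). Of 16 translation factors and related genes, 7 were called lower, with a median of -0.28, among them the elongation factors TUFM (-0.69, adjusted p = 0.00545), TSFM (-0.52, adjusted p = 0.00831) and GFM1 (-0.49, adjusted p = 0.00719). Also called were SLIRP (-0.59, adjusted p = 0.00687), which binds mitochondrial mRNA, the formyltransferase MTFMT (-0.58, adjusted p = 0.00648) and TACO1 (-0.50, adjusted p = 0.0137), an activator of MT-CO1 translation. Of 16 mitochondrial aminoacyl-tRNA synthetases 8 were called lower (median -0.33), among them EARS2 (-0.61, adjusted p = 0.00526), YARS2 (-0.59, adjusted p = 0.00923) and IARS2 (-0.51, adjusted p = 0.0048). By contrast, of the 85 cytosolic ribosomal proteins tested 8 were called lower and 1 higher, with a median of -0.03. All of these counts stand beside the 14% of all genes called lower, and the list medians were not set against other lists by a test.

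Of 10 factors that transcribe and copy the mitochondrial genome 3 were called lower with both drugs: SSBP1, which coats single-stranded DNA (-0.64, adjusted p = 0.005), the packaging factor TFAM (-0.28, adjusted p = 0.0278) and the DNA polymerase POLG (-0.28, adjusted p = 0.0458). The RNA polymerase POLRMT had -0.21 (adjusted p = 0.188). Of 8 regulators tested, 3 were called lower: NRF1 (-0.30, adjusted p = 0.0162), GABPB1 (-0.29, adjusted p = 0.0241) and GABPA (-0.26, adjusted p = 0.0475), the last 2 being partners in the same ETS complex. The level of NRF1 in JEKO1 was 40.2 CPM in control, 33.6 CPM with ironomycin alone, 44 CPM with ibrutinib alone and 32.2 CPM with both. With the treatments in the same order, NRF1 had 28.1, 20.7, 29.3 and 23.1 CPM in JVM2 and 40.6, 31.7, 43.2 and 32.8 CPM in MAVER1. In each line the 2 libraries with ironomycin were below the other 2. MYC had 0.16 (adjusted p = 0.24) and YY1 -0.05 (adjusted p = 0.576).

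**Figure D5:**
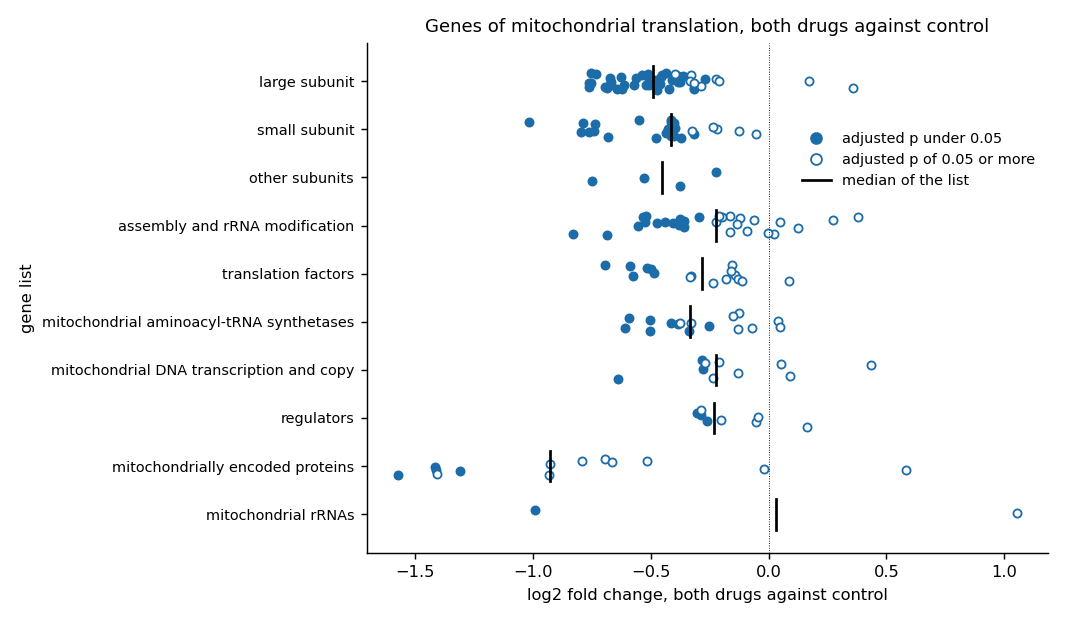
log2 fold change with both drugs against control (horizontal axis) for each gene of 10 lists (vertical axis), filled where the adjusted p was under 0.05, with a bar at the median of the list. Points of both ribosomal subunits lie almost all left of 0, with medians of -0.49 and -0.42, while the mitochondrially encoded proteins spread from -1.57 to 0.58.

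The RNAs that the mitochondrial genome itself supplies were measured through polyadenylated RNA, in which rRNA is only a remnant, and the 2 rRNAs did not move together. MT-RNR2, the 16S rRNA of the large subunit, had a log2 fold change of -1.46 ± 0.27 (SE), adjusted p = 0.0483 with ironomycin and -0.99 ± 0.27 (SE), adjusted p = 0.0216 with both drugs. For MT-RNR2, the JEKO1 control had 2658 CPM, ironomycin 1523 CPM, ibrutinib 2397 CPM and both drugs 2576 CPM. MT-RNR2 was at 2134, 528, 1738 and 749 CPM in JVM2, in the same order, and at 2855, 1009.9, 2291 and 1037 CPM in MAVER1. In JVM2 and MAVER1 both ironomycin libraries were far below the others, while JEKO1 with both drugs was near its control. MT-RNR1, the 12S rRNA of the small subunit, had 1.06 ± 0.42 (SE), adjusted p = 0.0824 with both drugs, and ratios of 2.31 (JEKO1), -0.31 (JVM2) and 1.03 (MAVER1). Of the 13 mitochondrially encoded proteins 4 were called lower with both drugs, where 14% of all genes were, with a median of -0.93 over the list. These were MT-CO1 (-1.57, adjusted p = 0.00654), MT-ND6 (-1.42, adjusted p = 0.0117), MT-CO2 (-1.41, adjusted p = 0.0195) and MT-CO3 (-1.31, adjusted p = 0.0204). JEKO1 held 3914 CPM of MT-CO1 in control, 1473 CPM with ironomycin, 3737 CPM with ibrutinib and 564 CPM with both drugs. JVM2 gave 5708, 2686, 5967 and 2995 CPM for MT-CO1 in that order, and MAVER1 4208, 2445, 3594 and 1757 CPM. MT-CO1 and the summed members were thus both lowest with both drugs in JEKO1 and MAVER1, and in JVM2 MT-CO1 was lowest with ironomycin alone. Not all of the 13 fell: with both drugs 12 lay below 0 and 1 above, and under the averaged ironomycin effect 5 were called lower and 1 higher. MT-ND2 was higher with ironomycin than in control in JEKO1 (1600 beside 1079 CPM), JVM2 (2550 beside 1091 CPM) and MAVER1 (2289 beside 1246 CPM).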

How the data were processed

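The authors deposited raw read counts per Ensembl gene for 12 polyA-selected, paired-end libraries, with no normalization. Per the labels and the submitters' processing notes, STAR, DESeq2 and the GRCh37 build were used, with no versions or roles. The counting tool and its use of strand are not given in the sources used here.

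All counts were scaled by TMM and tested in edgeR 4.0.16 (R 4.3.3) by the quasi-likelihood F-test, with treatment and cell line as terms over all 12 libraries. edgeR's filter on low counts left 18674 genes, over which p-values were adjusted by Benjamini-Hochberg; a gene was called at an adjusted p under 0.05. The SE is the log2 fold change divided by the square root of F. log2 CPM used a prior count of 2. Exon lengths came from GENCODE v29. Promoter windows came from a RefSeq table (GRCh38.p14), taken nearest to the principal transcript's start, and 69 members matched. DESeq2 1.42.0 with the same design was an alternative, as were other scalings and filters, fits of only the groups compared, fits without the cell line and fits without each line. Figures were drawn with matplotlib 3.10.9.

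In the treatment comparisons the replicates are the cell lines, and the fit blocks on them as the same line appears in every treatment. Deviations of 2 libraries from their group means correlated at 0.926 to 0.976 for the same line (18 pairs) and at -0.705 to -0.127 for different lines (48 pairs).

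The fit was tested on simulated data with these 18674 genes and known changes. For ironomycin against control, the edgeR fit called 61 of the 100 genes given a log2 change of 1, 18 of the 100 given 0.5, and 14 unchanged genes. For the averaged ironomycin effect these numbers were 71, 41 and 9. How the fit performs where the ironomycin libraries of a line share a response of that line was not tested.

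Members named are the 8 with the largest log2 fold change among those called in a comparison, the 10 lowest adjusted p-values where lines are compared, the 5 lowest p-values where fewer than 3 were called, the 5 highest and lowest per kilobase, and 11 members with further roles or paralogs. The other genes named are at most 6 called genes per pathway list, and 8 genes always. The members and lists were chosen with earlier results of these data known. Of the lists, 2 genes are not reported here and were left out of the list counts, sums and medians.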

Additional observations from a re-analysis of the deposited data

Results flagged for a closer look

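The effect of ironomycin, averaged over libraries with and without ibrutinib, differed between the cell lines in 13 members by edgeR's test of the line-by-ironomycin terms. The adjusted p-values (edgeR) of the 10 lowest were 0.00467 for MRPS6, 0.0198 for MRPL55, 0.0221 for MRPS34, 0.0243 for MRPL11, 0.0252 for MRPL54, 0.028 for MRPL4, 0.0309 for MRPS18A, 0.0335 for MRPL13, 0.0387 for MRPS35 and 0.0445 for MRPL23. In each of these JVM2 had the ratio nearest 0. The ironomycin dose differed between JEKO1 and the other lines, and JVM2 had the same dose as MAVER1. Serum and the ibrutinib dose did differ between JVM2 and MAVER1. With 1 set of libraries per line, line, serum and ibrutinib dose cannot be told apart there. Line and the doses of both drugs cannot be told apart where JEKO1 is compared. With only 2 lines in the fit the count was 0 when JVM2 was left out, 1 when MAVER1 was, and 24 when JEKO1 was.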

How the results depend on the processing

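The median log2 fold change of the members kept its direction under every alternative run, and no called value of a named gene reversed. Of the values of single genes under alternatives, 1136 stayed on the same side of the threshold, 222 were no longer past it and 27 came to pass it. The counts of members called depended on how the spread was estimated and on the scaling. Ironomycin against control gave 0 members, and 9 with no filter on low counts, 33 with DESeq2 and 0 to 30 when a line was left out. Both drugs against control gave 62, with 43 under library totals in place of TMM and 0 when only the groups compared were fitted. It was 1 with a log2 fold change of at least 1 required, and 0 to 67 when a line was left out. Both drugs against ibrutinib gave 62, with 39 under library totals in place of TMM, 1 when only the groups compared were fitted, 0 with the fold required, and 0 to 66 when a line was left out. The averaged ironomycin effect gave 65, with 51 under library totals, 0 when the fold was required and 3 to 69 when a line was left out. The difference between lines gave 61, with 40 to 52 when a line was left out. The ironomycin effect by line gave 13, with 21 by DESeq2 and 0 to 24 when a line was left out. The fits without a line or of only the groups compared rest on fewer libraries.

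Without the replicate block, that is without the cell line in the model, the counts were 0 for both drugs against control, 0 for both drugs against ibrutinib and 0 for the averaged ironomycin effect. Under library totals the all-gene median with both drugs moved from 0.05 to 0.18 and that of the members from -0.46 to -0.34, a difference of -0.51 under both scalings. With 3 lines, changes of the size seen with ironomycin alone are at the limit of what was detected.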
